A study of Mus musculus with 2 samples.

Results

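The CD4 T cells described here carried transcripts of Il17a, the cytokine that defines the Th17 lineage, and came from the inflamed spinal cord of mice with experimental autoimmune encephalomyelitis (EAE), a model of autoimmune inflammation of the central nervous system. A cell was a member when it had at least 2 counts summed over Cd3d, Cd3e and Cd3g, at least 1 of Cd4, at least 1 of Il17a, and 0 counts of Cd8a, Cd8b1, Foxp3 and Trdc. The members were thus chosen by their measured counts of these 9 genes, which are given below as levels only. The rule found 279 cells among 20504 with a single hashtag and at most 20% mitochondrial counts. Of these, 37 and 141 came from the 2 untreated mice, and 22 and 79 from the 2 inhibitor-treated mice. The untreated group was C57BL/6 mice with EAE and no inhibitor, and the inhibitor group was C57BL/6 mice with EAE that received one. EAE induction was thus common to both groups, and cells were taken 15 days after it. What the inhibitor was, what it binds, how much was given and when, and the sex and age of the animals, could not be read from the sources. CD45+ cells, that is leukocytes and microglia, were stained with 1 hashtag per mouse, pooled, and captured on 1 BD Rhapsody run with TAS-Seq amplification.

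Th17 cells are CD4 T helper cells that differentiate under IL-6 and TGF-beta, depend on STAT3, and respond to IL-1 and IL-23 through Il1r1 and Il23r. IL-17A signals to stromal, epithelial and endothelial cells, which then release factors that recruit and sustain neutrophils. In EAE, Th17 cells enter the central nervous system, where part of them also make IFN-gamma or GM-CSF (Csf2), and gamma-delta T cells are another source of IL-17A.

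Il17a lies on chromosome 1 of GRCm38, from 20730905 to 20734496 on the plus strand, and its paralogue Il17f lies on the same chromosome, from 20777146 to 20790617 on the minus strand. The 200 bases before the RefSeq start of each gene (GRCm38.p6) are shown because these neighbouring promoters serve the gene that chose the cells and the cytokine gene nearest to it. Both windows are free of annotated exons, and that of Il17f lies inside the longer annotated Il17f gene. Capitals mark every match, on either strand, to AGGTCA, the core letters of elements bound by nuclear receptors, and to TATAAA.
Il17a, chr1:20730705-20730904, plus strand: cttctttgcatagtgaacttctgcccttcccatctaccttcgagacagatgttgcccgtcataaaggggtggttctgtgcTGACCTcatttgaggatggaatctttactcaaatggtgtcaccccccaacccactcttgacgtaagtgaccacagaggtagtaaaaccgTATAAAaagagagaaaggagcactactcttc
Il17f, chr1:20784271-20784470, minus strand: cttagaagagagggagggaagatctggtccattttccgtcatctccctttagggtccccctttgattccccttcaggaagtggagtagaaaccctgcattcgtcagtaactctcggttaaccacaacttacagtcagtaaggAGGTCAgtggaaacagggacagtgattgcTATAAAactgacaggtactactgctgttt
In the Il17a window, AGGTCA is on the minus strand at bases -120 to -115 from the start, so the printed strand reads TGACCT, and TATAAA is on the plus strand at -31 to -26. The Il17f window has AGGTCA at -58 to -53 and TATAAA at -29 to -24, both on the printed strand. No match overlaps another. Among 32851 RefSeq windows of this length, 11.4% hold AGGTCA and 9.96% hold TATAAA, so neither is rare. TGACTCA (the AP-1 letters) and TTCNNNGAA (the STAT letters), which 3.66% and 5.49% of the windows hold, have no match in either window.

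The gate is described by what each condition kept out. Of 811 kept cells with Il17a, 706 had at least 2 counts of the Cd3 genes, and 403 of these had Cd4. Counts of Cd8a kept out 23 of the 403, Cd8b1 51, Foxp3 44 and Trdc 43, with some cells excluded by several genes. Just inside the thresholds were 37 members with a single count of Cd4, 2 with a Cd3 sum of 2 and 62 with a single count of Il17a. Just outside were 6 cells with a Cd3 sum of 1, 132 without a count of Cd4 and 0 over the mitochondrial limit that otherwise met the rule. Il17a counts were found in 22.3% of 494 gamma-delta T cells (95% Wilson interval 18.8 to 26.1), 10.2% of 352 Foxp3-positive CD4 T cells (7.48 to 13.8), 9.08% of 3074 CD4 T cells of the same gate (8.11 to 10.1) and 3.02% of 1027 CD8 T cells (2.13 to 4.25). These shares are not at equal depth: the median totals were 8359.5, 15018, 9449 and 9553 counts per cell in that order. Neutrophils, which should lack this cytokine, gave 0.815% of 5642 cells (0.612 to 1.09) at a median total of 8467.5 counts per cell. They were gated on at least 3 neutrophil markers and no count of the Cd3 genes. Neutrophils that carried Cd3 RNA were thus left out, so background shares of T cell genes taken from them may be too low. All intervals of shares in the text cover counting error only.

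T lineage genes that the rule did not use were detected in most members. Trbc2 had a count in 96.4% of the members, Lat in 92.5%, Trac in 90.7%, Lck in 76.0% and Cd2 in 72.8%. Trac was found in 10.4% of neutrophils. Of the Th17 markers, Rora had a count in 50.9% of the members, Il1r1 in 27.6%, Ccr6 in 12.2%, Il22 in 10%, Il17f in 7.53%, Il23r in 6.81% and Ccl20 in 0.717%. In neutrophils, Il1r1, Ccr6, Il22, Il17f and Il23r were each found in 0.142% to 0.691% of cells. Of these markers, Rora alone was detected in most members at this depth. With cells brought to equal depth, as described below, Rora was detected less often in members than in CD4 T cells without Il17a in 3 of 4 mice. In 1 mouse it was detected more often. The same numbers held against the CD4 T cells without Il17a that had Ifng or Csf2. Detection of Rora thus does not set the members apart from these cells. Members had a median total of 11503 counts and 2039 genes per cell, against 9253 and 1717 in CD4 T cells of the gate without Il17a. Markers of other leukocytes were present too: 60.6% of members (169 of 279) and 56.8% of the CD4 T cells without Il17a (1588 of 2795) had 2 or more counts of defining markers of neutrophils, B cells, microglia, dendritic cells or NK cells. The summed neutrophil markers (10 of 10 detected) made up 2688 and 4751 CPM (counts of the gene in a class of cells, scaled to a class total of 1000000) of the members in the untreated mice, against 33548 and 3261 CPM with the inhibitor. Microglia and macrophage markers (13 of 13 detected) summed to 4474 and 5320 against 1678 and 3477 CPM. Ncr1, Klra8 and Klra4 of the NK cell list, Jchain of the B lineage list and Trdv4 and Trgv2 of the gamma-delta list were at 0 in the members. Of 11 gamma-delta genes listed, 6 were counted here, and any of these had a count in 34 members (12.2%) and in 164 CD4 T cells without Il17a (5.87%). The 6 leave out the gamma chain genes Trgc1, Trgc2 and Trgc4, which the matrix holds. The shares and sums of gamma-delta RNA given here may thus be too low. Across untreated replicates 1 and 2 and inhibitor replicates 1 and 2, the 6 genes summed to 45.5, 38.8, 65.2 and 28.6 CPM in members. In the cells without Il17a the sums were 14.5, 30.5, 9.01 and 16.4 CPM. The part of these RNAs in the results below was not tested, except where cells with such markers were left out. That step used no gamma-delta genes.

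How often CD4 T cells carried Il17a was compared between treatments as a share of the gate. In untreated replicate 1, 4.74% of 781 CD4 T cells were members (3.46 to 6.46), and in untreated replicate 2, 12.5% of 1125 (10.7 to 14.6). In inhibitor replicate 1 the share was 5.63% of 391 (3.74 to 8.37), and in inhibitor replicate 2, 10.2% of 777 (8.23 to 12.5). Both groups thus held a mouse near 5% and a mouse at 10% or more, and the groups overlapped. The means were 8.64% ± 5.51 (SD, n = 2) untreated and 7.90% ± 3.21 (SD, n = 2) with the inhibitor, a difference of -0.738 percentage points (exact two-sided permutation test, p = 1). With 2 mice against 2, the smallest p this test can give is 0.333. Leaving out untreated replicate 2 turned the difference to 3.16 points, and leaving out inhibitor replicate 1 turned it to 1.53 points. With cells thinned to 5000 counts, the shares were 4.11% and 11.5% against 3.60% and 8.65%.

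**Figure D1:**
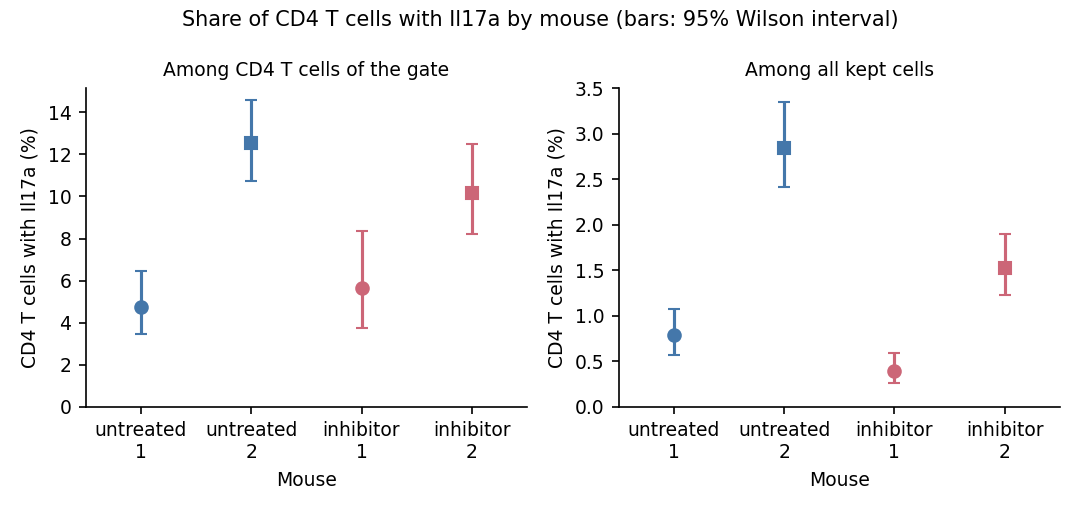
The share of CD4 T cells with Il17a in each mouse, in percent of the CD4 T cells of the gate (left) and of all kept cells (right); points are mice and bars are 95% Wilson intervals. In both panels the replicate 2 mice are higher than the replicate 1 mice of the same group, and the groups overlap.

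Of all kept CD45+ cells, the members made up 0.783% and 2.85% in untreated mice and 0.389% and 1.53% in inhibitor-treated mice. The inhibitor-treated mice were each lower than the untreated mouse of the same number, but the groups overlapped, with means of 1.81% and 0.958% (exact two-sided permutation test, p = 0.667). This share also moves with the other cells: the kept cells included 870 and 690 neutrophils in untreated and 2646 and 1436 in inhibitor-treated mice. Of T cells, members were 1.5% and 4.69% against 1.5% and 3.56% (p = 0.667 by the same exact test). Over the 13 shares compared between the groups, cytokine shares included, the Benjamini-Hochberg adjusted exact p-values ran from 0.963 to 1.

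The amount of Il17a per member varied widely. The median was 3 counts per cell in untreated replicate 1, 6 in untreated replicate 2, 2.5 in inhibitor replicate 1 and 5 in inhibitor replicate 2. A single count was found in 62 of the 279 members and 10 or more in 85, with a maximum of 221 in 1 cell. Cells with 10 or more were 16.2% and 34.0% of the members in untreated mice, and 9.09% and 36.7% in inhibitor-treated mice. The mice with the larger share of members also had the larger share of members with many counts. Summed over members, Il17a stood at 533 and 587 CPM without the inhibitor and at 338 and 843 CPM with it.

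**Figure D2:**
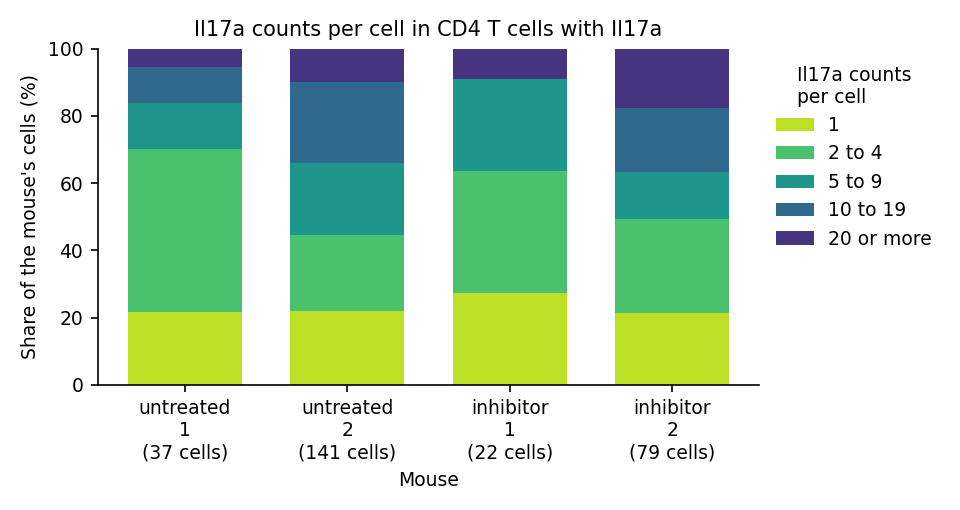
Members of each mouse by their number of Il17a counts per cell, as a percent of that mouse's members, with the number of members under each bar. Single-count cells made up 21.5% to 27.3% of members in every mouse, while the share with 10 or more ranged from 9.09% to 36.7%.

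Cells on either side of the Il17a threshold are described without a test, since Il17a chose them and deeper cells more often show any gene. The median total was 9253 counts in cells with 0 Il17a counts, 9748 with 1, 10306.5 with 2 to 9 and 14742 with 10 or more. Il1r1, the signalling receptor of IL-1, was detected in 11.5%, 14.5%, 27.3% and 37.6% of these cells in that order. Maf, a transcription factor of Th17 and other IL-10-competent T cells, was detected in 43.1%, 54.8%, 65.9% and 77.6%. All of these shares stepped up with the Il17a count, as did Ramp1, a subunit of the receptor for the neuropeptide CGRP, at 29.7%, 45.2%, 53.8% and 67.1%. Il22, Il23r, Tnf, Tmem176a and Tmem176b stepped up as well. Ifng did not follow this order, at 40.6%, 32.3%, 37.1% and 32.9%. Neither did Il17f, at 0.751%, 9.68%, 3.79% and 11.8%, or Ccr6, at 3.15%, 11.3%, 13.6% and 10.6%. Csf2 was at 3.15%, 1.61%, 6.06% and 11.8%, so it did not step up at each level. Members with 1 Il17a count were close to the negative cells for Il1r1, but not for all genes. Il17f and Ccr6 were higher in them, as were Il23r (6.45% against 1.57%) and Tmem176a (43.5% against 25.8%). The shares with Ifng and Csf2 were lower, but their 95% Wilson intervals, 22.0 to 44.6 and 0.285 to 8.59, held the values of the negative cells. That of Csf2 rests on 1 of 62 cells.

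Second cytokines were counted in the members to show which effector products went with Il17a. Of 10 cytokines listed, 9 have a row in the matrix. Tnf, a broad inflammatory cytokine, had a count in 171 of 279 members, Ifng in 97, Il22 in 28, Il17f in 21, Csf2 in 19, Il2 in 9, Il21 in 7, Il10 in 6 and Ccl20 in 2. Neutrophils had Tnf in 20.2% of cells and Ifng in 3.78%, and Il22, Il17f and Csf2 in 0.354%, 0.337% and 0.142%. Tnf was found in 75.7% and 59.6% of members in untreated mice and in 45.5% and 62.0% in inhibitor-treated mice. Ifng was found in 32.4% and 36.9% against 40.9% and 30.4%. The groups overlapped for both. Il22, which acts on epithelial barriers, was found in 13.5% and 9.22% against 4.55% and 11.4%, and Il17f in 5.41% and 7.09% against 0 of 22 cells and 11.4%. Csf2, the GM-CSF gene linked to myeloid recruitment in EAE, was found in 10.8% and 7.09% against 0 of 22 cells and 6.33%. For inhibitor replicate 1, a count of 0 in 22 cells allows a share of up to 14.9% by the Wilson interval, so its zeros carry little weight.

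Several cytokines were found in the same members. Ifng and Tnf were detected together in 70 members (25.1%), Ifng and Il22 in 12, Ifng and Csf2 in 8, Ifng and Il17f in 6, and Il17f and Il22 in 4. Ifng or Csf2 was detected in 108 members (38.7%), and 66 members (23.7%) had none of Tnf, Ifng, Il22, Il17f and Csf2. Of the 2795 CD4 T cells without Il17a, which had lower totals per cell, 1161 had Ifng or Csf2, so this share was not higher in the members. Any of the 9 measured cytokines was found in 81.1% and 78.7% of members of untreated mice and in 63.6% and 79.7% of inhibitor-treated mice. The means differed by -8.21 percentage points (exact two-sided permutation test, p = 0.667), and inhibitor replicate 1 alone was below the other mice. Without that mouse the difference was -0.155 points, and with thinned cells -2.66 points. The smallest p the exact test can give, 0.333, was reached by Csf2 (means 8.95% untreated and 3.16% with the inhibitor), Il2 (5.83% and 0.633%), Il10 (2.77% and 0.633%) and Il21 (2.06% and 4.17%), each with an adjusted p of 0.963. These 4 rest on 6 to 19 cells each.

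Detection was compared with CD4 T cells of the same mice at equal depth, with each cell thinned to 5000 counts and 26 members and 502 CD4 T cells without Il17a left out as shallower. Il22 was then found in 9.38%, 9.09%, 6.25% and 9.59% of members across untreated replicates 1 and 2 and inhibitor replicates 1 and 2, against 2.73%, 3.38%, 1.38% and 2.24% of the negative cells. Members exceeded the negative cells in 4 of 4 mice for Il22, Tnf, Il21, Ccl3, Tnfsf11, Furin, Il1r1, Il23r, Maf, Tmem176a, Tmem176b, Cxcr6, Lat and Trac. These come from a longer set of genes counted in the same way. Against the negative cells with Ifng or Csf2 alone, Tnf was higher in 2 of 4 mice, Cxcr6 in 1 of 4 and Trac in 3 of 4. The other genes just named were higher in 4 of 4 there too. Ccl5, a chemokine of Th1 and cytotoxic T cells, and Tcf7, a factor of resting and stem-like T cells, were below the negative cells in 4 of 4 mice. Ifng was lower in 3 of 4, at 25%, 29.5%, 43.8% and 19.2% of thinned members against 38.5%, 35.2%, 33.4% and 40.0%. Inhibitor replicate 1 was the exception, where 16 members remained after thinning. For Il23r and Il21 the thinned shares of members rest on 7 cells each.

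**Figure D3:**
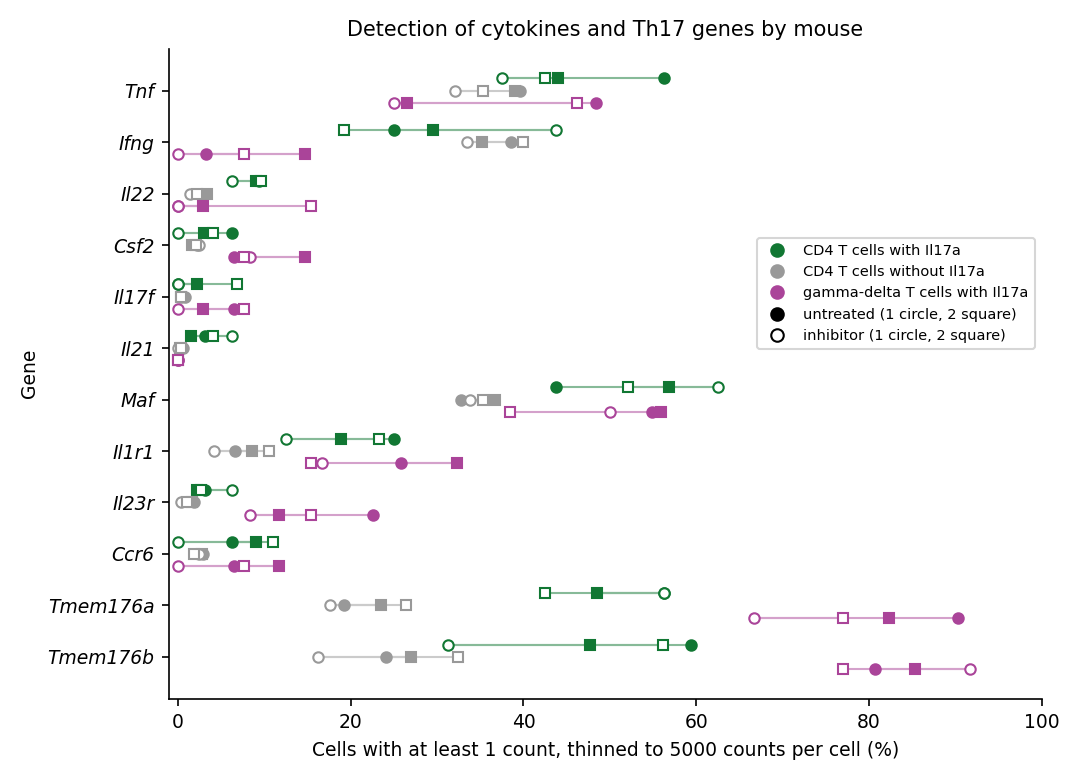
Percent of cells with at least 1 count of each gene after thinning every cell to 5000 counts, for CD4 T cells with Il17a, CD4 T cells without Il17a and gamma-delta T cells with Il17a; each marker is 1 mouse. Tmem176a lies at 42.5% to 56.2% in the members, at 17.6% to 26.4% in CD4 T cells without Il17a and at 66.7% to 90.3% in gamma-delta T cells with Il17a.

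Counts were then summed per mouse over members and over the CD4 T cells of the gate without Il17a, and compared within mice to show what else differed between them. Of 11730 genes tested (edgeR quasi-likelihood test with mouse as a block, Benjamini-Hochberg adjustment, the 9 genes of the rule left out), 0 were called higher (0%) and 4 were called lower in the members (0.0341%). 568 genes had an unadjusted p under 0.05. DESeq2 called 29 genes higher and 20 lower, and limma on mean log values 25 higher and 7 lower. Nkg7, a granule protein of cytotoxic and Th1 cells, was at 167, 195, 151 and 204 CPM in members of untreated replicates 1 and 2 and inhibitor replicates 1 and 2, and at 443, 317, 451 and 481 CPM in the negative cells. Every mouse was lower in the members, and the ranges did not overlap. Its log2 fold change was -1.19 (SE 0.157, edgeR adjusted p = 0.0404), and 72 members had a count. Gzma, a granule protease, was listed at 0, 3.49, 0 and 7.57 CPM in members and at 23.6, 36.7, 22.4 and 104 CPM in the negative cells (log2 -3.87, SE 0.530, edgeR adjusted p = 0.0429), with 2 member cells above 0. The smallest nonzero value of Gzma in the matrix is 6, so a listed 0 may stand for a lower count.

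All 4 called genes are also expressed by other leukocytes: Gzma is in the NK cell list, and Nkg7 in the CD8 T cell list. NK cell markers were positive in 0 of 5 (median -1.13), with Gzma called, and summed to 307.1 to 486 CPM in members against 516 to 749 CPM in the negative cells. CD8 T cell markers outside the rule were positive in 0 of 3 (median -1.19), with Nkg7 called, and summed to 176 to 252 against 396 to 577 CPM. Pglyrp1, a peptidoglycan recognition protein of neutrophil granules, was at 53.1, 75, 261 and 69.8 CPM in members and 144, 172, 506 and 186 CPM in the negative cells (log2 -1.22, SE 0.152, edgeR adjusted p = 0.0330). The mouse with the most neutrophil RNA, inhibitor replicate 1, was the highest in both classes. Igkc, the immunoglobulin kappa constant chain, had a log2 fold change of -5.67 (edgeR adjusted p = 0.000183), with counts in 2 member cells, while 1 negative cell held 75.8% of the negative cells' counts. All 10 neutrophil markers had negative log2 fold changes, with a median of -1.12, and none passed. Their summed level was 2688 to 33548 CPM in members and 8116 to 37418 CPM in the negative cells, lower in the members in 4 of 4 mice. Without cells carrying markers of other leukocytes, Nkg7 remained lower (log2 -1.61, edgeR adjusted p = 0.00137), the only 1 of the 4 genes still called. The call of Pglyrp1 was lost (log2 -1.72, edgeR adjusted p = 0.978), and Gzma and Igkc were not called there either. Leaving out untreated replicate 1, untreated replicate 2 or inhibitor replicate 2 ended the call of Nkg7, with log2 fold changes of -1.14, -1.38 and -1.19 and edgeR adjusted p-values of 0.143, 0.0539 and 0.0761. Each of these 3 leave-outs also ended the calls of Pglyrp1 and Gzma, with adjusted p-values from 0.0731 to 0.324, and leaving out untreated replicate 2 ended that of Igkc (0.211).

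The next 6 genes in rank are given as values, since they did not pass. Tmem176a, an ion channel-like membrane protein, was at 300, 281, 294 and 279 CPM in members against 147, 167, 132 and 182 CPM (log2 0.90, edgeR adjusted p = 0.0679). Tmem176b, its paralogue, was at 444, 332, 225 and 424 against 164, 202, 125 and 230 CPM (log2 0.99, edgeR adjusted p = 0.0599). For Tmem176a the 2 classes did not overlap, and for Tmem176b they met only at inhibitor replicate 1, whose members were below the highest negative value. Il1r1 was at 77.7, 75, 56.3 and 120 against 25.6, 29.8, 18.0 and 38.8 CPM (log2 1.56, edgeR adjusted p = 0.0679). Nr4a1, an early gene of T cell receptor signalling, was at 464, 374, 368 and 359 against 252, 212, 235 and 206 CPM (log2 0.81, edgeR adjusted p = 0.0594). All 4 mice were higher in the members for these genes. Ly6c2, a surface protein of inflammatory monocytes and effector T cells, was at 96.7, 118, 222 and 227 against 473, 312, 648 and 359 CPM (log2 -1.42, edgeR adjusted p = 0.0594). The remaining gene was Chil3, a chitinase-like protein of myeloid cells (log2 -1.49, edgeR adjusted p = 0.0674), with counts in 7 members.

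**Figure D4:**
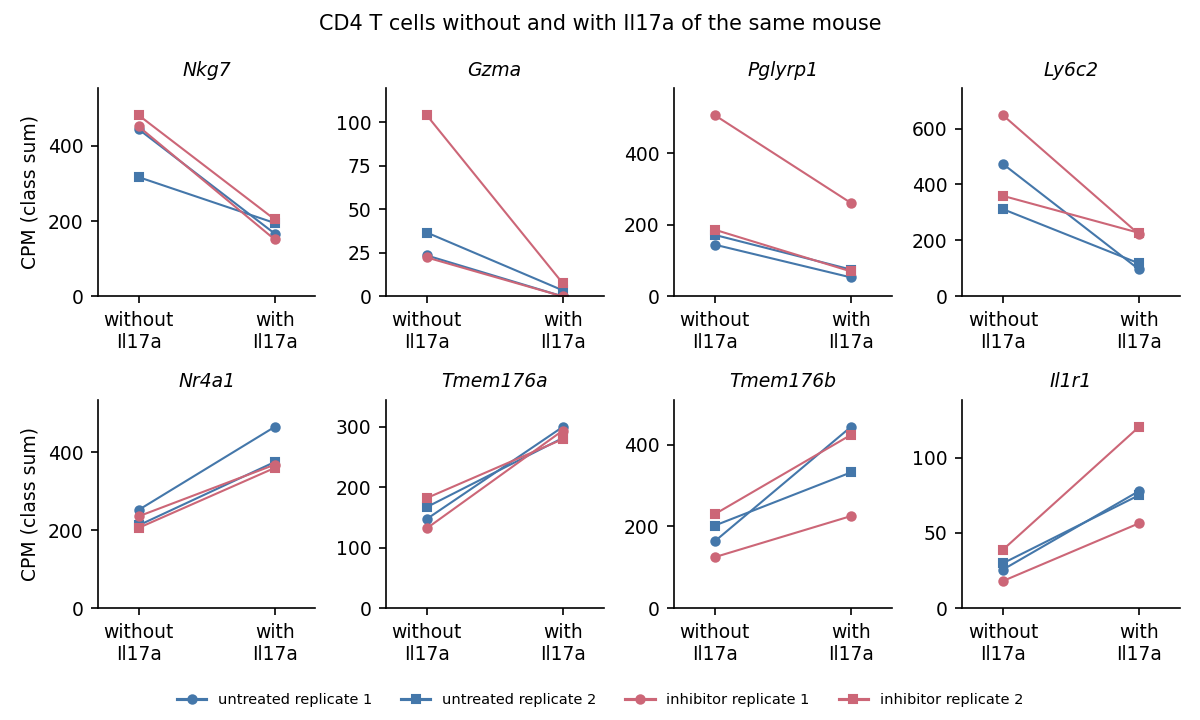
CPM of 8 genes in the summed CD4 T cells without and with Il17a, with 1 line per mouse and axes from 0. Nkg7, Gzma, Pglyrp1 and Ly6c2 fall along every line, and Nr4a1, Tmem176a, Tmem176b and Il1r1 rise along every line; of the 8, Nkg7, Gzma and Pglyrp1 passed the test.

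When every cell was first thinned to 5000 counts, which gives each cell equal weight, 26 of 8893 genes passed the same edgeR test, 14 higher and 12 lower. The genes named here beyond those above were picked after these values were seen. Tmem176a (log2 1.10, edgeR adjusted p = 0.00112), Tmem176b (1.05, adjusted p = 0.00169), Il1r1 (1.57, adjusted p = 0.0461) and Nr4a1 (1.01, adjusted p = 0.000372) were now higher in the members. So were Il22 (log2 2.42, edgeR adjusted p = 0.00983), Tnf (0.88, adjusted p = 0.00718), the costimulatory receptor Icos (0.68, adjusted p = 0.00601), the activation-induced factor Egr3 (1.47, adjusted p = 0.0102) and Ramp1 (1.02, adjusted p = 0.00158). Nkg7 (log2 -1.29, edgeR adjusted p = 2.99e-05), Gzma (-4.42, adjusted p = 0.00151), Ly6c2 (-1.30, adjusted p = 0.000684), Ccl5 (-2.33, adjusted p = 8.95e-06) and the cathepsin Ctsw (-1.07, adjusted p = 0.000402) were lower. So were the myeloid genes S100a9 (log2 -0.55, edgeR adjusted p = 0.000372), S100a8 (-0.58, adjusted p = 0.00077) and Lyz2 (-0.79, adjusted p = 0.0461). All 4 genes called without thinning were among the 26. The direction of each of these genes was the same with and without thinning.

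Gene lists of T cell programmes are given by the number of genes with a positive log2 fold change and the median, beside 5010 of 11730 and a median of -0.07 over all genes. Of 18 Th17 transcription factors, 17 were positive (median 0.19) and 0 passed, including Maf at 271, 387, 199 and 232 CPM in members against 139, 208, 180 and 151 (log2 0.69, edgeR adjusted p = 0.360). Of 19 tested cytokines and chemokine ligands, 16 were positive (median 0.47), among them Il22 (log2 2.45, edgeR adjusted p = 0.237) and Il17f (log2 3.18, edgeR adjusted p = 0.578, with 1 cell holding 53.2% of the members' Il17f counts). Of 24 activation and costimulation genes, 20 were positive (median 0.36). Of 17 resting and stem-like genes, 2 were positive (median -0.61), with Tcf7 at 94.8, 160, 86.0 and 169 CPM in members against 261, 220, 247 and 185. Of 17 Th1 genes, 5 were positive (median -0.30) and 2 passed, both lower and both also in the cytotoxic list, Nkg7 and Gzma. The Th1 factor Tbx21 itself was at 17.1, 24.4, 11.9 and 24.4 against 31.3, 29.7, 27.8 and 40.3 CPM (log2 -0.69, edgeR adjusted p = 0.995). Of 12 cytotoxic genes, 1 was positive (median -0.78). The receptors of Th17 cytokines (12 of 21, median 0.01), the encephalitogenic Th17 signature (8 of 15, median 0.03), cell cycle genes (9 of 20, median -0.04) and glycolysis genes (14 of 17, median 0.19) had 0 genes passing. Stap1, an adaptor of receptor signalling named in the series title, was at 87.2, 81.5, 77.1 and 68.2 CPM in members against 76.5, 76.9, 84.2 and 94.6 (log2 -0.06, edgeR adjusted p = 0.995). Stap1 had a count in 31.5% of members and in 31.6% of neutrophils, and it did not pass against gamma-delta T cells either (log2 -0.25, edgeR adjusted p = 0.947). Stap2, its relative, had a count in 2 members and was not among the genes tested.

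The nearest other effector cells were the 1161 CD4 T cells of the gate with a count of Ifng or Csf2 and none of Il17a, at a median total of 11100 counts per cell. They are part of the negative cells above, so both comparisons share the members and a part of the other cells. Of 10637 genes tested, with Ifng and Csf2 also left out, 0 were called higher (0%) and 3 lower in the members (0.0282%), and 444 had an unadjusted p under 0.05. DESeq2 called 17 higher and 12 lower, and limma 9 higher and 14 lower. Nkg7 stood at 641, 447, 562 and 656 CPM in the Ifng or Csf2 cells, all above the members' 151 to 204 CPM (log2 -1.62, SE 0.145, edgeR adjusted p = 0.00188). Its call held without each mouse in turn, with log2 fold changes from -1.80 to -1.54, and was lost without cells carrying markers of other leukocytes (log2 -2.06, edgeR adjusted p = 0.0845). Gzma (log2 -4.31, edgeR adjusted p = 0.0151) and Igkc (log2 -6.36, edgeR adjusted p = 1.98e-05) were the other called genes, each with 2 member cells above 0. Both lost the call without untreated replicate 2 (edgeR adjusted p = 0.1004 and 0.284), and Gzma also without inhibitor replicate 2 (0.638). Neither was called without cells carrying markers of other leukocytes.

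Ccr6, the receptor for Ccl20 and a homing receptor of Th17 cells, was at 28.4, 32.7, 8.89 and 47.1 CPM in members and at 0.436, 3.41, 0 and 1.09 CPM in the Ifng or Csf2 cells. The classes did not overlap, but the log2 fold change of 4.78 (SE 0.731) did not pass (edgeR adjusted p = 0.102). Tmem176a was at 279 to 300 CPM in members against 110 to 170 CPM (log2 1.08, edgeR adjusted p = 0.102), and Tmem176b at 225 to 444 against 125 to 222 CPM (log2 1.08, edgeR adjusted p = 0.172). Ctsw, a cathepsin of cytotoxic cells, was at 167 to 348 against 510 to 616 CPM (log2 -1.0, edgeR adjusted p = 0.172), and the histone gene Hist1h2ao at 73.2 to 130 against 122 to 410 CPM (log2 -1.20, edgeR adjusted p = 0.172). Il1r1 was at 23.8, 26.9, 9.15 and 33.6 CPM in those cells, below every member value, and did not pass either (log2 1.88, edgeR adjusted p = 0.102). Il22 was at 121, 51.4, 11.9 and 334 CPM in members against 17.0, 13.5, 0.610 and 5.24 CPM (log2 3.53, edgeR adjusted p = 0.172), and 1 cell held 29.5% of the members' Il22 counts. With thinned cells, 10 of 7212 genes passed the edgeR test, including Tmem176a (log2 1.31, adjusted p = 0.00454) and Tmem176b (1.21, adjusted p = 0.0116) as higher and Ccl5 (-2.72, adjusted p = 0.000764) as lower. Detection of the homing receptors Ccr2 and Cxcr3 in thinned cells was lower in the members in 4 of 4 mice; Cxcr3, the receptor of Th1 cells for interferon-induced chemokines, was found in 31.2%, 20.5%, 12.5% and 28.8% of members against 34.8%, 36.0%, 48.7% and 35.3%. Th17 transcription factors were positive in 14 of 18 (median 0.27), cytotoxic genes in 1 of 12 (median -1.07) and cell cycle genes in 3 of 20 (median -0.21), beside 4782 of 10637 and a median of -0.05 over all genes.

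Gamma-delta T cells with Il17a, gated on Trdc with 0 counts of Cd4, numbered 35 and 45 in untreated and 14 and 16 in inhibitor-treated mice, and had a median total of 8638.5 counts per cell. The comparison asked which genes differ between the CD4 and the innate-like source of the same cytokine in the same tissue. Il17a made up 928, 1345, 941 and 639 CPM of their counts, against 533, 587, 338 and 843 CPM in the members. Of 5592 genes tested, 24 were called higher (0.429%) and 29 lower in the members (0.519%), and 496 had an unadjusted p under 0.05. Genes of the T cell receptor and other T lineage genes were among the higher genes. Trac was at 1115, 793, 774 and 1028 CPM in members against 78.4, 225, 285 and 104 CPM (log2 2.56, SE 0.347, edgeR adjusted p = 0.00327). Of 12 T lineage genes, 10 were positive and 7 were called higher: Trac, Trbc2, Cd2, Cd5, Cd6, Cd28 and Lck, beside 3159 positive of 5592 over all genes. Cd6, a receptor for activated leukocyte adhesion molecules, was at 275 to 316 CPM in members, and 1 gamma-delta cell had a count. Cd28, the costimulatory receptor, was at 148, 174, 119 and 162 against 2.70, 22.3, 0 and 12.2 CPM (log2 4.03, edgeR adjusted p = 0.00771). The calls of Cd28 and Lck were lost without inhibitor replicate 2 and untreated replicate 1, at edgeR adjusted p-values of 0.0553 and 0.0538.

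Cd40lg, Lta and Il1r2 were also higher in the CD4 cells. Cd40lg, the ligand by which helper T cells license antigen-presenting cells, was at 159, 105, 213 and 144 CPM in members against 13.5, 4.46, 31.6 and 6.09 CPM (log2 3.71, SE 0.522, edgeR adjusted p = 0.00386). The 2 classes did not overlap. Lta, a cytokine of the TNF family, was at 345, 66.7, 125 and 63.1 against 21.6, 22.3, 15.8 and 0 CPM (log2 3.08, edgeR adjusted p = 0.0393), and Il1r2, the decoy receptor of IL-1, at 73.9, 73.2, 110 and 127 against 10.8, 4.46, 0 and 18.3 CPM (log2 3.48, edgeR adjusted p = 0.0428). The calls of Il1r2 and Lta were lost when single mice were left out, each mouse for Il1r2, and untreated replicate 1, inhibitor replicate 1 or inhibitor replicate 2 for Lta, with edgeR adjusted p-values up to 0.241 and 0.389. Markers of microglia were positive in 13 of 13 and of neutrophils in 8 of 8 tested, with medians of 1.60 and 1.87, and none of these passed. Nrgn, a calmodulin-binding protein, had counts in 46 members and in 0 gamma-delta cells, so no fold is given for it. The remaining higher genes by the naming rule were the interferon-induced Ifi27l2a (log2 2.83, edgeR adjusted p = 0.000841) and Ifitm3 (log2 2.98, edgeR adjusted p = 0.000841), and the cytoskeletal Actb (log2 0.45, edgeR adjusted p = 0.00506), whose call was lost without untreated replicate 2 (0.0541). Ifi27l2a was at 709 to 1388 CPM in members against 23.7 to 225 CPM.

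**Figure D5:**
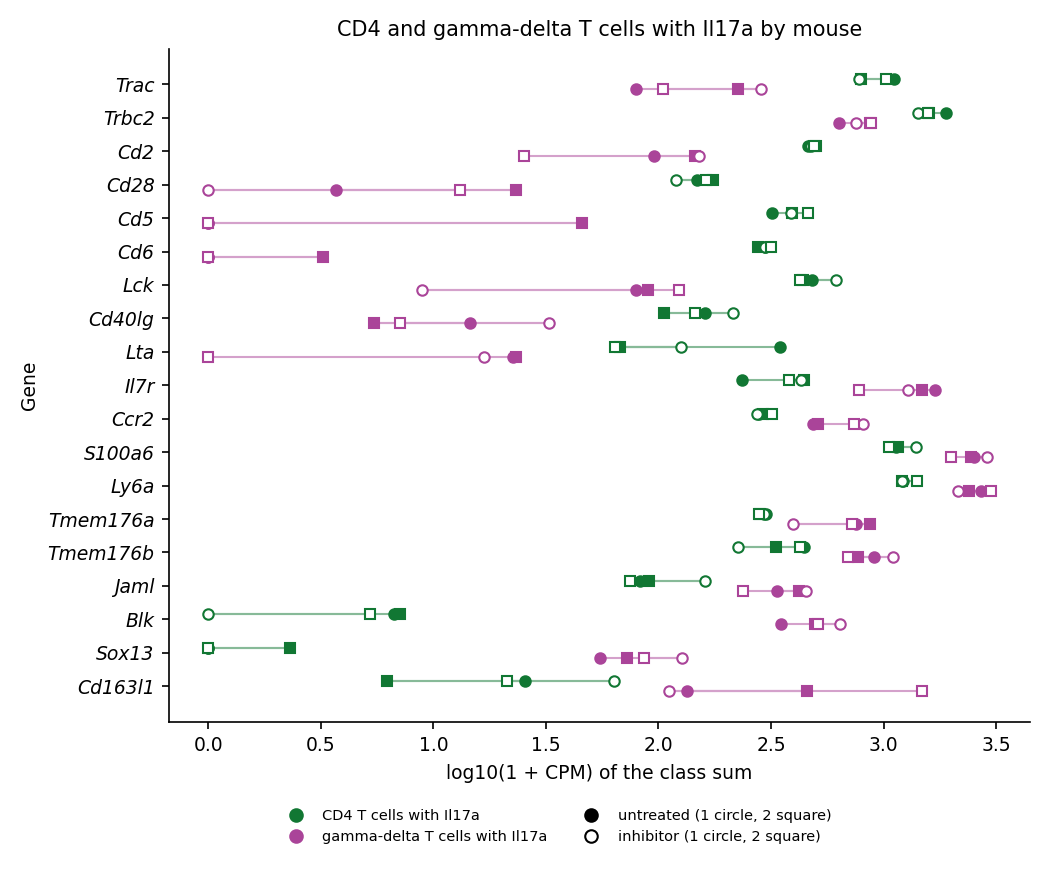
log10(1 + CPM) of 19 genes in the summed CD4 and gamma-delta T cells with Il17a; each marker is 1 mouse. All 19 genes passed the test, and in every one the ranges of the CD4 and the gamma-delta T cells are apart.

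Lower in the members were genes of the gamma-delta lineage and several genes that both kinds of cell express. The gamma chain genes Trgc1, Trgc2 and Trgc4, the scavenger receptor 5830411N06Rik, the kinase Blk and the factor Sox13 had log2 fold changes from -7.61 to -5.74, and 2 to 19 members had a count of them. The call of Sox13 was lost without untreated replicate 2 (edgeR adjusted p = 0.0541). Abi3bp (log2 -5.77, edgeR adjusted p = 0.000366) and the potassium channel gene Kcnk1 (log2 -8.22, edgeR adjusted p = 0.000841) had counts in 5 and 1 members and in 54 and 25 gamma-delta cells. Trgv2 was at 0 in every mouse of the members and in 31 of 110 gamma-delta cells. Il7r, the receptor for the survival cytokine IL-7, was at 233, 444, 427 and 378 CPM in members against 1696, 1476, 1289 and 773 CPM (log2 -1.79, SE 0.249, edgeR adjusted p = 0.00361). S100a6, a calcium-binding protein, was at 1137, 1155, 1388 and 1059 against 2529, 2440, 2879 and 1991 CPM (log2 -1.04, edgeR adjusted p = 0.000660). Ly6a was at 1223, 1202, 1201 and 1412 against 2718, 2397, 2144 and 2990 CPM (log2 -1.01, edgeR adjusted p = 0.000841). In all 3 the classes did not overlap. CT010467.1, a transcript found in every member, was at 6544 to 7952 CPM in members against 10024 to 17465 CPM (log2 -0.76, edgeR adjusted p = 0.000841). Tmem176a and Tmem176b, higher in members than in other CD4 T cells after thinning, were lower than in gamma-delta T cells (log2 -1.21 and -1.28, edgeR adjusted p = 0.0310 and 0.0205). Ccr2, the receptor for Ccl2, was at 279, 290, 273 and 318 against 487, 511, 807 and 737 CPM (log2 -1.08, edgeR adjusted p = 0.0276). Leaving out single mice ended the calls of Ccr2 (each of the 4 mice), Tmem176a (untreated replicate 1, untreated replicate 2 or inhibitor replicate 2) and Tmem176b (untreated replicate 1 or untreated replicate 2), with edgeR adjusted p-values up to 0.207, 0.322 and 0.118. Of 27 tested lipid and survival genes of tissue T cells, 8 were positive (median -0.41) and 7 passed as lower. These 7 are S100a6, Tmem176a, Tmem176b, Blk, Actn2 (log2 -1.60, edgeR adjusted p = 0.0162), Crip1 (log2 -0.86, edgeR adjusted p = 0.0192) and Cd163l1, a scavenger receptor of gamma-delta T cells (log2 -4.22, edgeR adjusted p = 0.0459), so the list is made up in part of gamma-delta genes. Jaml, an adhesion molecule of tissue T cells, passed in the adhesion list (log2 -1.86, edgeR adjusted p = 0.00513). The calls of Jaml, Actn2, Crip1, Cd163l1 and Trgv2 were each lost in 1 to 3 of the 4 fits that left out a mouse, with untreated replicate 2 among them in every case and adjusted p-values up to 0.407.

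Of 16 tested Th17 transcription factors, 8 were positive (median -0.08) and 0 passed. In the receptors of Th17 cytokines, 6 of 16 were positive (median -0.19), with Il1r2 called higher and Il7r called lower. In the encephalitogenic Th17 signature, 10 of 12 were positive (median 0.95), and Il7r was the one gene called. Maf had a log2 fold change of 0.02 (SE 0.284, edgeR adjusted p = 0.997) and Il1r1 of -0.28 (SE 0.456, edgeR adjusted p = 0.931). Ifng was at 320, 201, 264 and 133 CPM in members against 64.9, 161, 47.5 and 60.9 CPM (log2 1.48, SE 0.416), which did not pass either (edgeR adjusted p = 0.186). By detection in thinned cells, Il23r was found in 2.77% of members and 15.6% of gamma-delta cells, Csf2 in 3.56% and 10%, and Ifng in 26.9% and 7.78%. Csf2 detection was lower in the members in 4 of 4 mice.

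Whether the inhibitor altered gene expression inside the members was tested on their sums per mouse. Of 8608 genes, 0 passed (0%) by the edgeR quasi-likelihood test, and 262 had an unadjusted p under 0.05. DESeq2 called 3 genes and limma on mean log values 5. The 10 genes with the smallest p are given as values, and none passed (edgeR adjusted p = 0.999 for each). Egr1, an immediate early factor of T cell activation, stood at 973 and 1175 CPM without the inhibitor and at 382 and 482 CPM with it (log2 -1.32, SE 0.207), and the groups did not overlap. Klf2, a factor of resting and recirculating T cells, was at 356 and 317 against 119 and 157 CPM (log2 -1.28, SE 0.282). Atf3, a stress-induced factor, was at 311 and 206 against 29.6 and 78.3 CPM, and the small GTPase gene Rhob at 231 and 186 against 38.5 and 76.6 CPM.

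Leaving out inhibitor replicate 2 gave 405 called genes and leaving out inhibitor replicate 1 gave 13. Both fits compare 1 treated mouse with 2, and the 22 members of inhibitor replicate 1 then stand alone in the first. DESeq2 called Egr1 and Atf3 as lower and Ly6a2 as higher. For Ly6a2, 1 cell held 50.8% of the members' counts. The other genes of the 10 were Cst3, Tmem119 and Cd14, which are expressed by microglia or other myeloid cells, Il2, with counts in 9 members, and Nt5m, in 15. Cst3 was at 2370 and 2491 against 397 and 1114 CPM, and the microglia marker sums differed in the same direction, with 12 of 13 markers negative and a median of -1.45.

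Levels of Il22, Il17f, Tnf and Ifng within the members overlapped between the groups. Il22 stood at 121 and 51.4 CPM without the inhibitor and at 11.9 and 334 CPM with it, so that the inhibitor group held the lowest and the highest value. Il17f was at 22.7 and 57.1 against 0 and 23.6 CPM. Tnf was at 679 and 250 against 314.3 and 300 CPM, and Ifng at 320 and 201 against 264 and 133 CPM. For 4 other listed cytokines, named after their values were seen, the groups did not overlap and both inhibitor-treated mice were lower, but none passed (edgeR adjusted p = 0.999 for each). Il2 was at 85.3 and 17.4 against 0 and 2.52 CPM, Il10 at 15.2 and 17.9 against 0 and 0.841 CPM, the chemokine gene Ccl3 at 210.4 and 209 against 17.8 and 132 CPM, and Ltb, a TNF family cytokine, at 480 and 589 against 225 and 475 CPM. Il2 and Il10 had counts in 9 and 6 members. Of 17 tested cytokines and chemokine ligands, 5 were positive (median -0.61), and of 18 Th17 transcription factors, 13 (median 0.16), beside 4132 of 8608 and a median of -0.03 over all genes; 0 passed in either list. Genes that respond to tissue handling, such as Fos and Jun, were positive in 0 of 12 (median -0.50), with Fos at 1555 and 1328 against 1144 and 799 CPM. Neutrophil markers were positive in 9 of 10 (median 2.13), and S100a8 reached 11958 CPM in inhibitor replicate 1 against 813 to 1159 CPM in the other mice. Stap1 had a log2 fold change of -0.23 (SE 0.407, edgeR adjusted p = 0.999), which turned positive, at 0.22, without cells carrying markers of other leukocytes.

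Whether the contrast of members with the CD4 T cells without Il17a differed between treatments was tested by an interaction. Of 11730 genes, 4 passed the edgeR quasi-likelihood test (0.0341%), all haemoglobin genes of red blood cells (Hbb-bs, Hba-a1, Hba-a2 and Hbb-bt), and 262 had an unadjusted p under 0.05. All 2377 haemoglobin counts in the members came from 1 of the 79 cells of inhibitor replicate 2. The next 6 genes, Zfp568, Ly6a2, Ifi27l2a, Ccl17, Nt5m and Ptdss1, did not pass (edgeR adjusted p = 0.9998 for each). Ifi27l2a was at 1388 and 1022 against 709 and 762 CPM in the members, and at 1223 and 880 against 1007 and 979 CPM in the cells without Il17a (log2 -0.66). No gene of the T cell lists passed, and DESeq2 and limma called 0 genes, with 277 and 572 at an unadjusted p under 0.05.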

How the data were processed

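The deposited table holds whole-number counts per gene and cell for leukocytes from the spinal cords of 4 mice, 2 per group, captured with BD Rhapsody and TAS-Seq per the labels' protocols and made by the authors on GRCm38 per the submitters' processing notes. The table's name mentions an inflection, demultiplexing and a step called DBEC; the aligner, the counter, strand use and the nature of a count, molecule or read, are not given in the sources used. The 3943 columns without a single hashtag of these mice were not used. No doublet caller was run.

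The members and gene lists were chosen with earlier results of these data known. Kept cells had a median of 8409.5 to 8838.5 counts per mouse, which limits single-cell detection of low genes. Counts were summed per mouse and class and tested with edgeR 4.0.16 (filterByExpr, TMM, glmQLFit, glmQLFTest; adjusted p under 0.05) in R 4.3.3, with mouse as a block between classes of the same animals. Each mouse gave cells of both classes, so the block comes from shared animals. Gamma-delta classes needed 10 cells per mouse. Shares were compared by exact permutation (scipy 1.17.1). Alternatives used DESeq2 1.42.0 and limma 3.58.1 (mean log values, scale 10000, pseudocount 1, added after seeing the data), no low-count filter, other gates, and each mouse left out. Named genes were list members that passed, the 10 smallest p per direction among those passing, or the 10 smallest p where fewer passed. Statistics were tested on simulated sums with the same dispersion of 0.05 for every gene. In these the treatment test recovered 9 of 95 changes of 2-fold and 70 of 93 of 4-fold. The test against CD4 T cells without Il17a recovered 42 of 98 and 88 of 98. Of unchanged genes, 0 of 8397 and 4 of 11723 were called. The real sums also hold genes in which 1 cell gives much of the counts, so recovery there may be lower and was not tested. The 0 genes called for the treatment thus do not show that no gene changed. Thinning drew 5000 counts per cell at random (seed 1). In 35 genes with at least 100 nonzero values the smallest nonzero count exceeds 1, so a 0 may stand for a lower count. Besides Gzma, this holds for Ccl5, Igkc, Chil3, Cst3, Lyz2, S100a8, S100a9 and the haemoglobin genes named in the text. Their smallest nonzero counts run from 5 for Ccl5 to 112 for S100a9, so their numbers of cells with counts may be too low. Results for certain genes are not reported here.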

Additional observations from a re-analysis of the deposited data

Results flagged for a closer look

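The contrast of CD4 T cells with and without Il17a differed between treatments, by the edgeR interaction test, in 4 haemoglobin genes: Hbb-bs (log2 difference 14.39), Hba-a1 (14.37), Hba-a2 (13.67) and Hbb-bt (13.70). All of the members' haemoglobin counts came from 1 of 79 cells of inhibitor replicate 2. Among cells without Il17a, 5 and 2 cells of the untreated mice and 0 and 4 cells of the inhibitor-treated mice had haemoglobin counts. DESeq2 and limma called 0 of the 4.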

How the results depend on the processing

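The difference in the share of members, -0.738 percentage points, ranged from -4.64 to 3.16 when 1 mouse was left out, and turned positive without untreated replicate 2 or inhibitor replicate 1 (3.16 and 1.53). It stayed negative, from -1.86 to -0.568, under the other gates, thinning and the T cell denominator. The second cytokine share differed by -16.3 to -0.155 points across leave-outs. For the treatment, 0 genes passed, against 3 with DESeq2, 5 with limma, 33 without a filter and 0 to 405 without 1 mouse; the replicate block gave 0 genes, with 136 at an unadjusted p under 0.05. Whether replicate numbers pair the mice of the groups is not known from the labels. The correlation of the replicate 1 deviations was -0.0346 over 8608 genes, which cannot decide this with 2 mice per group. Against CD4 T cells without Il17a, 4 genes passed, against 49 with DESeq2, 32 with limma, 96 without a filter, 26 in thinned cells, 9 in the middle depth range, 9 without the deepest cells, 12 without cells with other cells' markers, 1 at 2 or more Il17a counts and 1 to 14 without 1 mouse; with no replicate block 0 passed, with 734 at an unadjusted p under 0.05. Against Ifng or Csf2 cells, 3 passed, against 29 with DESeq2, 23 with limma, 78 without a filter, 10 in thinned cells, 9 in the middle depth range, 7 without the deepest cells, 5 without cells with other cells' markers, 1 with no replicate block and 2 to 10 without 1 mouse. Against gamma-delta T cells, 53 passed, against 125 with DESeq2, 150 with limma, 152 without a filter, 66 with no replicate block and 29 to 50 without 1 mouse. For the interaction, 4 passed, against 0 with DESeq2, 0 with limma, 8 without a filter and 4 to 42 without 1 mouse. Where 1 mouse was left in a group, it was assumed to vary like the others. The direction of Stap1 turned for the treatment without cells with other cells' markers (0.22) and with limma (0.0068). It turned against CD4 T cells without Il17a with limma (0.036) and ranged there from -0.16 to 0.069 without 1 mouse. Against gamma-delta T cells it ranged from -0.60 to 0.24 without 1 mouse. Chil3 turned with limma (0.0196). The cause of these shifts was not tested. Besides Stap1 and Chil3, no named gene changed direction in these alternatives. Over all named genes and alternatives, a call was lost in 78 cases and gained in 92. Inhibitor replicate 1 had 22 members, the fewest of the 4 mice.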

Other observations

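T cell receptor segments were read in part of the members. A count of any Trbv segment was found in 78 of 279 members (28.0%) and in 623 of 2795 CD4 T cells without Il17a (22.3%). Trbv5, picked after its values were seen, had a count in 19 members (6.81%) and 49 negative cells (1.75%). Its level was 26.5, 8.72, 2.96 and 5.05 CPM in members of untreated replicates 1 and 2 and inhibitor replicates 1 and 2, against 1.61, 3.95, 4.12 and 2.31 CPM, so members were higher in 3 of 4 mice. The difference did not pass (log2 1.64, edgeR adjusted p = 0.995). Trbv13-2, the most frequent segment of the negative cells, had a count in 18 members (6.45%) and 108 negative cells (3.86%).

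Of 12 tested cell cycle genes, 12 were positive against gamma-delta T cells with Il17a (median 1.03) and 0 passed, beside 3159 of 5592 over all genes (median 0.09), of which 24 passed as higher and 29 as lower. Against Ifng or Csf2 cells, 3 of 20 were positive (median -0.21) and 0 passed, beside 4782 of 10637 (median -0.05), of which 0 passed as higher and 3 as lower. Of 6 tested regulatory T cell markers other than Foxp3, 6 were positive against CD4 T cells without Il17a (median 0.46) and 0 passed, beside 5010 of 11730 over all genes (median -0.07), of which 0 passed as higher and 4 as lower. Of 23 activation and costimulation genes, 18 were positive against gamma-delta T cells (median 0.75) and 2, Cd28 and Cd40lg, passed, to be read beside the all-gene values of that comparison given above.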
